A study of Homo sapiens with 12 samples.

Results

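The comparison described here was the main effect of interleukin 1 beta (IL1) in T-HESC, a human endometrial stromal cell line immortalised with telomerase. All 12 arrays of the series entered it, and it set the 6 arrays of cultures that received IL1 against the 6 arrays of cultures that did not. Presence of tumour necrosis factor alpha (TNF) was a factor in the model, without an interaction term, so each difference is an average over cultures with and without TNF. There were 4 groups of 3 arrays: TNF (5 ng/ml) with IL1 (1 ng/ml), IL1 alone at the same dose, TNF alone at the same dose, and vehicle. Treatment lasted 48 h in every group and followed 24 h without serum. All cultures had been kept in medium with puromycin, all came from the same line, and the 3 replicates of a group were cultures of passage 13, passage 28 and passage 15. The groups therefore speak for 1 immortalised line and not for several donors. Because each array measured RNA of a whole culture, fewer cells of a kind and less RNA per cell cannot be told apart.

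IL1 binds the receptor IL1R1, which recruits the accessory protein IL1RAP and the adaptor MYD88 with kinases of the IRAK family. The signal ends at the transcription factor NF-kB and, through MAP kinases, at AP-1, and stromal fibroblasts are known to answer it with neutrophil chemokines, IL6, prostaglandin E2 and matrix-degrading enzymes. Among the targets are also inhibitors of the pathway, such as TNFAIP3 and ZC3H12A. TNF reaches NF-kB through receptors of its own, so many genes are known targets of both cytokines.

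Levels are log2 of an intensity that was scaled to the median of its array, so 0 on this scale lies close to the median probe, and the number of arrays limits the precision. Of 13 stromal fibroblast markers, 12 had a mean level above the median gene, which lay at 1.36, and collagen genes COL1A1 (9.03) and COL1A2 (8.41) were near the top of the scale. Of the markers of other cell types, 4 of 12 epithelial, 3 of 7 perivascular and smooth muscle, 2 of 14 leukocyte and 2 of 9 endothelial ones lay above that median, and PTPRC, the pan-leukocyte antigen, averaged −3.95. The first principal component held 22.6% of the variance and set apart single arrays, some with IL1 and some without it. Its scores were 171.1 for vehicle replicate 3, 68.7 for TNF replicate 3, 53 for IL1 replicate 2 and −84.8 for vehicle replicate 1, against −33.8 to −18.2 for the other 8 arrays. Of these 4 arrays, 3 belong to cultures without IL1.

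With IL1, 1 probe rose past the threshold and none fell past it. It was the probe for CXCL2, a chemokine that attracts neutrophils, which rose by 5.15 ± 0.48 (SE) on the log2 scale (limma, adjusted p = 0.0191 over 53671 probes). That is 0.00186% of the probes tested, at an adjusted p under 0.05, and 1 of 18106 genes (0.00552%). At an unadjusted p under 0.05 there were 6309 probes (11.8%), 1646 of them higher and 4663 lower with IL1. The genes next to CXCL2 in the order of p included the transcription factor CEBPD, the chemokine CCL7, the RNase ZC3H12A and the kinase MAP3K8, with adjusted p values of 0.0594 to 0.0743. The lower gene with the lowest p was CD27, dim at a mean level of −2.42. Its change was −1.10 ± 0.15 (limma, adjusted p = 0.0743).

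The excess of lower values was absent after quantile normalization but not after median centring. Over 18106 genes, each represented by 1 probe, the median log2 change with IL1 was −0.11, and quantile normalization moved that median to −0.00. After it, 2277 probes were higher and 2139 lower at an unadjusted p under 0.05. Centring each array on its median left 1746 higher and 4461 lower, with a median change of −0.10. A small change below 0 is therefore to be read at least against −0.11. The move with quantile normalization was not the same for every gene. It was larger for some bright genes, such as GAPDH (−0.18 to 0.08) and the adhesion molecule ICAM1 (−0.32 to −0.08). For CCDC112, a dimmer gene, it was smaller (−0.54 to −0.51).

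A second description used the arrays directly. A gene was counted as separated when every TNF+IL1 array lay on one side of every TNF array and every IL1 array lay on the same side of every vehicle array. This held for 118 genes with higher levels with IL1 (0.652% of genes) and 488 with lower levels (2.70%). The median change was 0.67 among the higher ones and −0.42 among the lower ones, and changes of at least 2-fold were found in 37 higher and 40 lower genes. The lower count was 200 after quantile normalization, against 158 higher genes there. Of the 118 higher genes, 86 had a mean below the median gene, where signals are dim. So had 150 of the 488 lower genes. Among the lower genes that changed at least 2-fold, only KRT18 (2.78), ACTC1 (5.06) and KRT19 (5.5) lay above the median gene. The values below therefore centre on genes with clear signal.

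**Figure D1:**
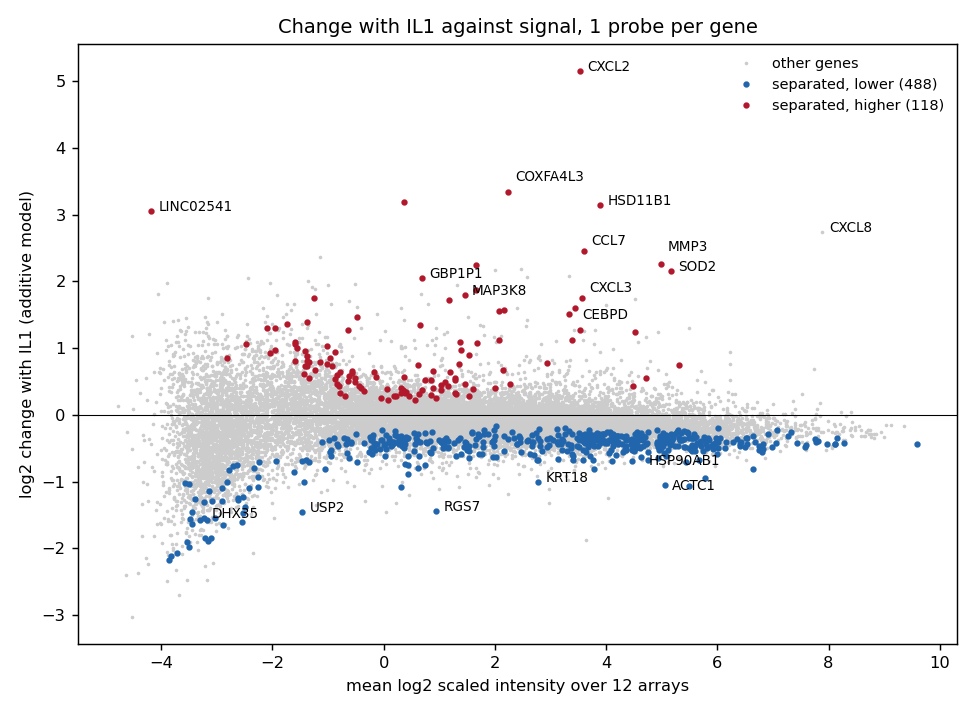
The change with IL1 in the additive model (vertical axis, log2) is plotted against the mean level over 12 arrays (horizontal axis, log2 scaled intensity) for 18106 genes. Red points are the 118 genes separated with higher levels with IL1, blue points the 488 separated with lower levels, and CXCL2 stands alone at 5.15.

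CXCL2 had levels of 6.47, 6.86 and 6.73 on the TNF+IL1 arrays, in the order of passages 13, 28 and 15, against 2.99, −0.01 and 2.31 on the TNF arrays. Without TNF its levels were 5.99, 5.31 and 5.33 with IL1, against 0.59, −0.98 and 0.88 with vehicle. Every array with IL1 was above every array without it, by a gap that left no overlap. The change was 4.92 ± 0.71 in the presence of TNF and 5.38 ± 0.71 in its absence, and the difference between these was −0.46 ± 1.00 (unadjusted p = 0.658, limma). Within passages, the 6 differences between an array with IL1 and its partner without it ran from 3.48 (passage 13, TNF present) to 6.88 (passage 28, TNF present). The main effect of TNF on the same probe was 1.37 ± 0.48 (adjusted p = 0.521). The call of CXCL2 was lost when vehicle replicate 1 (adjusted p = 0.107), vehicle replicate 3, TNF replicate 3, IL1 replicate 1, IL1 replicate 3, TNF+IL1 replicate 2 or TNF+IL1 replicate 3 was left out, with log2 changes of 4.78 to 5.45 over all 12 such omissions. Without the 3 arrays that scored highest on the first component its change was 5.5 and the adjusted p 0.142.

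The promoters of CXCL2 and of 3 other chemokine genes are printed here because NF-kB and AP-1 motifs in such promoters are the best-known end points of the IL1 signal. CXCL2 is the only gene that met the test, and CXCL3, CXCL8 and CCL7 were added after their values were seen. Each line gives the 250 bases before the RefSeq start on GRCh38.p14, read 5′ to 3′ on the strand of the gene. Matches to kappaB (GGGRNWYYCC) or AP-1 (TGANTCA) are in capitals, where R is A or G, W is A or T, Y is C or T and N is any base. A site that departs from a pattern by a single base was not counted. CXCL2 lies at chr4:74099196-74099445 on the minus strand, CXCL3 at chr4:74038690-74038939 on the minus strand, CXCL8 at chr4:73740319-73740568 on the plus strand and CCL7 at chr17:34269971-34270220 on the plus strand.
CXCL2: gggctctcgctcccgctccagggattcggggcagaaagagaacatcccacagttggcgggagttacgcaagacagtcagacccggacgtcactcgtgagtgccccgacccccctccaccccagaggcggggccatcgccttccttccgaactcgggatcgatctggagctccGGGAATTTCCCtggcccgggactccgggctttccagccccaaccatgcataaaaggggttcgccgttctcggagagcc
CXCL3: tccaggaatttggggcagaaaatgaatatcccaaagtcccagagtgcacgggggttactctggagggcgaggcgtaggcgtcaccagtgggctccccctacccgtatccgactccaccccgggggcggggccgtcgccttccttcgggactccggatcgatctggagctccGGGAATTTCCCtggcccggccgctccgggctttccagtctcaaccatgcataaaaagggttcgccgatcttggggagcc
CXCL8: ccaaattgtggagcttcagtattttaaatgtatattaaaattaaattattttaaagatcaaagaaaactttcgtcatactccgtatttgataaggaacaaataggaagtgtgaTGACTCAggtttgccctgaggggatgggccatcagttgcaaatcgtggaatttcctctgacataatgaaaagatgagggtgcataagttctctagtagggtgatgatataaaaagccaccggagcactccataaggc
CCL7: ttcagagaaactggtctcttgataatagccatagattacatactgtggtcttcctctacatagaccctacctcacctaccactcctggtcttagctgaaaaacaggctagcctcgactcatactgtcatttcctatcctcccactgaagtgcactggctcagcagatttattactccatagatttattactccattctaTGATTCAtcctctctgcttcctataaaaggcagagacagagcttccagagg
In CXCL2 and CXCL3 the capitals hold 2 kappaB matches that overlap each other, beginning at base −78 before the start in CXCL2 and at base −79 in CXCL3. CXCL8 has an AP-1 match whose first base is at −137, and CCL7 one at −51. No stretch of CXCL8 met the kappaB pattern, but its tggaatttcc departs from that pattern in the first base only. Both motifs were searched on both strands. Over windows of 300 bases, which add 50 bases after the start, 2075 of 35116 RefSeq promoters held a kappaB match (5.91%) and 2707 an AP-1 match (7.71%). Among the 20 genes with higher levels with IL1 and the lowest p, 16 had a promoter in the table, of which 4 held a kappaB match and 1 an AP-1 match. A match describes these letters and is not evidence that a factor was bound.

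The neutrophil-attracting CXCL chemokines were the list with the highest median change. Of its 7 measured members 1 rose past the test, 5 were higher at an unadjusted p under 0.05 (2.61% of all genes were), and the median was 1.75, against −0.11 over all genes. CXCL3, a close paralog of CXCL2 in the same gene cluster, had levels of 4.70, 5.09 and 5.17 with TNF+IL1, against 3.72, 3.07 and 2.85 with TNF. Its levels were 4.33, 3.47 and 3.93 with IL1 and 1.53, 3.06 and 1.96 with vehicle. The arrays did not overlap in either background, although IL1 replicate 2 lay below TNF replicate 1. The change was 1.75 ± 0.27 (limma, adjusted p = 0.139), and 1.77 with TNF present against 1.72 without, so the estimate hardly moved with TNF. Whether the probes of such close paralogs share signal was not tested, as probe sequences were not used here. CXCL5 and CXCL6, which bind the same receptors, were dimmer and gave changes of 1.67 ± 0.42 (adjusted p = 0.304) and 1.76 ± 0.56 (adjusted p = 0.310).

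CXCL8, interleukin 8, was bright on every array that had received a cytokine. It stood at 9.36, 9.48 and 9.33 with TNF+IL1, against 9.20, 6.82 and 9.49 with TNF, and at 9.13, 8.96 and 9.22 with IL1, against 4.81, 4.11 and 4.63 with vehicle. The IL1 and vehicle arrays were far apart, whereas TNF replicate 3 lay above every TNF+IL1 array. The averaged change of 2.74 ± 0.67 (adjusted p = 0.304) thus combined 0.88 ± 0.57 with TNF present and 4.59 ± 0.57 without it. The difference between these had an unadjusted p of 0.000917 and an adjusted p of 0.914 (limma). It was called when TNF replicate 2, the array at 6.82, was left out (limma, adjusted p = 0.0101).

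**Figure D2:**
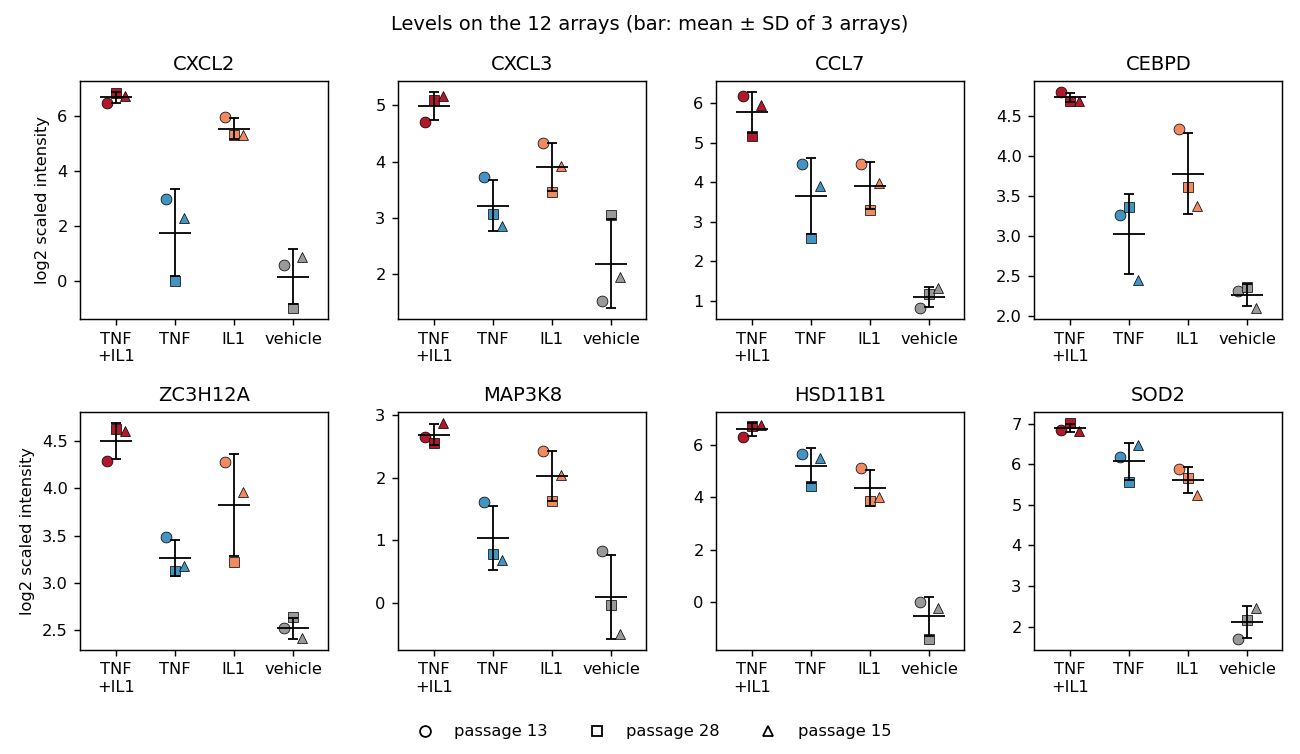
Levels (vertical axes, log2 scaled intensity) of 8 genes are plotted for each of the 12 arrays by group, with symbols for the 3 passages and bars for the mean ± SD of 3 arrays. CXCL2 stood between 5.31 and 6.86 on arrays with IL1 and between −0.98 and 2.99 on arrays without it, while for SOD2 and HSD11B1 the vehicle arrays alone were low.

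Of 13 measured CC chemokines, none was called, 6 were higher and 1 lower at an unadjusted p under 0.05, and the median change was 0.52. Over all genes, 2.61% were higher and 9.15% lower at that level. CCL7, which attracts monocytes, had levels of 6.17, 5.17 and 5.95 with TNF+IL1, against 4.47, 2.58 and 3.89 with TNF. With IL1 alone its levels were 4.46, 3.29 and 3.97, against 0.82, 1.17 and 1.32 with vehicle. The groups were separated in both backgrounds, IL1 alone and TNF alone gave similar levels, and the 2 cytokines together gave the highest. The change with IL1 was 2.46 ± 0.34 (limma, adjusted p = 0.0743), and that with TNF was 2.20 ± 0.34 (adjusted p = 0.0610). CCL8, a monocyte chemokine of the same cluster, differed by 2.37 ± 0.55 (adjusted p = 0.298), and CCL11, which attracts eosinophils, by 2.06 ± 0.67 (adjusted p = 0.310).

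CCL2, the main monocyte attractant of fibroblasts, showed its change in the absence of TNF. It stood at 4.13, 4.74 and 4.65 with TNF+IL1, against 4.87, 4.12 and 4.90 with TNF, and these overlap. With IL1 alone it had levels of 4.58, 4.66 and 3.88, against 1.08, 1.59 and 2.42 with vehicle. The change was −0.12 ± 0.38 with TNF present and 2.67 ± 0.38 without it, and the difference between these had an unadjusted p of 0.000381 (limma, adjusted p = 0.843). CCL5, which attracts T cells, gave 0.14 ± 0.50 with IL1 (adjusted p = 0.945), while TNF raised it by 5.20 ± 0.50 (limma, adjusted p = 0.00558). The difference, IL1 minus TNF, was −5.06 ± 0.71 (limma, unadjusted p = 3.13e-05, adjusted p = 0.547).

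Transcription factors of the CEBP and ATF families stood among the genes with the lowest p. CEBPD, a factor of the acute phase, had levels of 4.8, 4.69 and 4.69 with TNF+IL1, against 3.26, 3.36 and 2.45 with TNF. Its levels were 4.34, 3.61 and 3.38 with IL1, against 2.31, 2.36 and 2.10 with vehicle. All 6 arrays with IL1 lay above all 6 without it, the nearest being IL1 replicate 3 at 3.38 and TNF replicate 2 at 3.36. The change was 1.61 ± 0.20 (limma, adjusted p = 0.0594), with 1.71 in the presence of TNF and 1.52 in its absence.

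ATF3, a stress-induced factor that restrains inflammatory genes, ran from 3.50 to 4.12 on the arrays with IL1 (median 4.02) and from 1.88 to 3.15 on those without it (median 2.99). These ranges did not overlap, and the change was 1.12 ± 0.19 (limma, adjusted p = 0.175). Over the 18 measured AP-1, CEBP and early growth response factors, CEBPD and ATF3 were the only ones at an unadjusted p under 0.05. The median change of this list was 0.03, and 2.61% of all genes were higher at that level.

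Of 14 measured NF-kB subunits and IkB proteins, 2 were higher at an unadjusted p under 0.05 (2.61% of all genes were). The median change was 0.12. NFKBIZ, a nuclear IkB protein that IL1 is known to induce, ran from 4.89 to 5.5 with IL1 (median 5.05) and from 2.35 to 4.69 without it (median 4.04). No array with IL1 fell into the range of those without, and the change was 1.25 ± 0.29 (limma, adjusted p = 0.298). The lowest value, 2.35, belonged to vehicle replicate 3.

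The feedback regulators of NF-kB had 13 measured members, of which 5 were higher at an unadjusted p under 0.05 (2.61% of all genes were). Of the 13, 2 were separated with higher levels (0.652% of all genes were), namely ZC3H12A and MAP3K8, and the median change was 0.32. MAP3K8 was on this list although it carries the signal onward, as given below. ZC3H12A, an RNase that destroys cytokine mRNAs, had levels of 4.29, 4.62 and 4.60 with TNF+IL1, against 3.48, 3.13 and 3.18 with TNF. Its levels were 4.28, 3.22 and 3.96 with IL1, against 2.52, 2.64 and 2.42 with vehicle. The groups were separated in both backgrounds, and IL1 replicate 2 alone among the arrays with IL1 lay within the TNF range. The change was 1.27 ± 0.18 (limma, adjusted p = 0.0743). It was called when that array was left out (adjusted p = 0.0375).

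MAP3K8, the kinase that carries the signal from IkB kinase to ERK, ran from 1.63 to 2.88 on the arrays with IL1 (median 2.49) and from −0.50 to 1.61 on those without it (median 0.73). The 2 ranges touched without overlap, and the change was 1.80 ± 0.25 (limma, adjusted p = 0.0743). A second, dim probe of MAP3K8 with a mean level of −2.91 gave 0.16 ± 0.50. TNFAIP3, the deubiquitinase A20, was higher by 1.2 ± 0.31 (adjusted p = 0.304), but its range of 0.77 to 3.35 with IL1 overlapped that of −0.30 to 3.19 without it. TNFAIP2 gave 2.17 ± 0.54 (adjusted p = 0.304).

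Among cytokines, IL6 had the lowest p. It stood at 6.05, 5.36 and 5.99 with TNF+IL1, against 3.70, 3.24 and 3.70 with TNF, and at 4.06, 3.21 and 4.31 with IL1, against 2.19, 2.80 and 3.43 with vehicle. The TNF+IL1 arrays were the highest 3 of the 12, while IL1 replicate 2 lay below vehicle replicate 3. The change averaged 1.65 ± 0.31 (limma, adjusted p = 0.242), with 2.25 ± 0.38 in the presence of TNF and 1.06 ± 0.38 in its absence. IL11, another cytokine of the IL6 family, gave 1.35 ± 0.42 (adjusted p = 0.310), LIF of the same family −0.33 ± 0.40 and the granulocyte factor CSF3 0.13 ± 0.21. IL10, an anti-inflammatory cytokine, was dim, at −1.31 to 0.67 with IL1 and −2.23 to −0.78 without it, and differed by 1.24 ± 0.33 (adjusted p = 0.304).

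Of the IL1 family itself, 9 ligands were measured, 3 were higher at an unadjusted p under 0.05 (2.61% of all genes were). The median change was 0.14. IL33, an alarmin of the nucleus, gave 2.08 ± 0.58 (limma, adjusted p = 0.304), with 0.68 in the presence of TNF and 3.49 in its absence. IL1A differed by 0.75 ± 0.26 on its brighter probe (adjusted p = 0.326) and by 1.72 ± 0.49 on a second one (adjusted p = 0.304). IL1B, IL1RN and IL1R1 were not analysed here, as no probe of theirs alone was tested. Among 17 receptors and proximal signalling genes, 1 was higher and 2 lower at an unadjusted p under 0.05, and the median was −0.07. The 2 lower ones make up a share close to the 9.15% of all genes. Changes in this list ran from −1.63 to 1.47. IRAK3, a kinase-like inhibitor of the receptor complex, was dim and higher by 1.47 ± 0.38 (adjusted p = 0.304). The decoy receptor IL1R2 and the accessory chain IL1RAP gave −0.02 ± 0.17 and 0.07 ± 0.55.

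**Figure D3:**
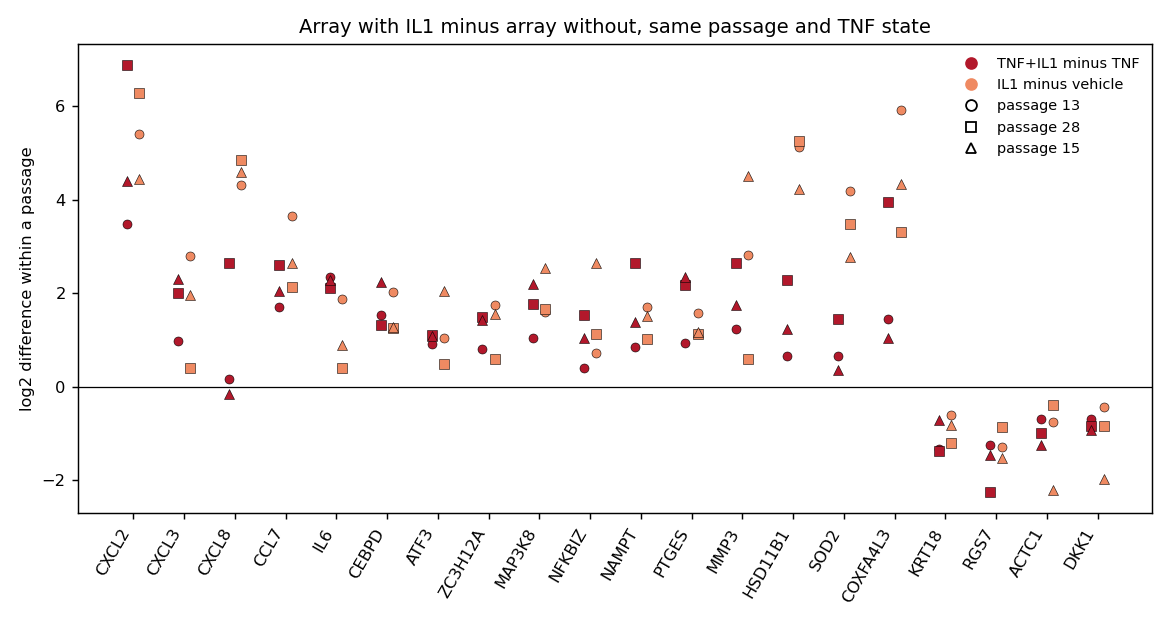
Each point is the log2 difference (vertical axis) between an array with IL1 and the array without it of the same passage and TNF state, for 20 genes, in red for TNF+IL1 minus TNF and orange for IL1 minus vehicle. All 6 points of CXCL2 lie between 3.48 and 6.88, and the points of HSD11B1 and SOD2 fall into a higher set without TNF and a lower set with it.

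Of the prostaglandin list, the terminal synthase had the lowest p. PTGES, the inducible synthase of prostaglandin E2, had levels of 3.40, 3.72 and 4.0 with TNF+IL1, against 2.47, 1.55 and 1.64 with TNF. Its levels were 2.71, 1.70 and 1.55 with IL1, against 1.12, 0.58 and 0.38 with vehicle. It was separated in both backgrounds, with a change of 1.56 ± 0.26 (limma, adjusted p = 0.160). PTGS2, the cyclooxygenase before it, was dim and gave 0.41 ± 0.17 (adjusted p = 0.383), at −0.99 to −0.44 with IL1 and −1.49 to −0.64 without it. Over the 20 members of this list, 2 were higher and 1 lower at an unadjusted p under 0.05, and the median was 0.01. The shares of all genes at that level were 2.61% higher and 9.15% lower.

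NAMPT, the rate-limiting enzyme of NAD salvage and also a secreted cytokine, ran from 3.18 to 4.87 with IL1 (median 3.98) and from 2.16 to 3.43 without it (median 2.29). It was separated within each background, and its change was 1.52 ± 0.25 (limma, adjusted p = 0.143), against 0.42 ± 0.20 on a dimmer second probe. GCH1, which starts tetrahydrobiopterin synthesis, was separated as well at low signal, with 1.37 ± 0.28 (adjusted p = 0.278).

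Of 26 measured metalloproteinases, ADAMTS enzymes and TIMPs, 2 were higher and 1 lower at an unadjusted p under 0.05, and the median change was 0.15. At that level 2.61% of all genes were higher and 9.15% lower. MMP3, stromelysin 1, stood at 5.88, 6.43 and 6.61 with TNF+IL1, against 4.64, 3.78 and 4.86 with TNF. Its levels were 5.69, 4.35 and 7.71 with IL1, against 2.86, 3.76 and 3.19 with vehicle. The groups were separated in both backgrounds, but the 3 IL1 arrays spanned more than 3 log2 units, and the change was 2.26 ± 0.48 (limma, adjusted p = 0.278). MMP1, interstitial collagenase, gave 0.19 ± 0.51 (adjusted p = 0.921) at levels of 4.37 to 7.19 with IL1 and 4.25 to 6.56 without it. TNFAIP6, which crosslinks hyaluronan, differed by 0.95 ± 0.20 (adjusted p = 0.278), with 1.35 in the presence of TNF and 0.56 in its absence.

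The additive model averages changes that may differ with TNF, and this difference was tested for every probe. No probe was called for the interaction (limma), and 1927 had an unadjusted p under 0.05. The probe of SOD2, the mitochondrial superoxide dismutase, had the lowest interaction p among named genes. It had levels of 6.83, 7.02 and 6.82 with TNF+IL1, against 6.18, 5.57 and 6.47 with TNF, and of 5.88, 5.66 and 5.25 with IL1, against 1.70, 2.17 and 2.47 with vehicle. The vehicle arrays stood apart from the other 9. The change was 0.82 ± 0.29 with TNF present and 3.49 ± 0.29 without it (interaction −2.67 ± 0.41, unadjusted p = 5.84e-05, adjusted p = 0.843), and the main effect was 2.15 ± 0.44 (adjusted p = 0.278). A second SOD2 probe, at a mean level of 0.25, gave 0.10 ± 0.12. SLC7A10, an amino acid transporter gene, and LACRT, a tear protein gene, were next in the order of interaction p, but both were dim, at mean levels of −3.09 and −3.01.

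HSD11B1, which turns cortisone into cortisol, had the same shape and 2 probes in accord. It stood at 6.30, 6.72 and 6.76 with TNF+IL1, against 5.65, 4.43 and 5.51 with TNF, and at 5.13, 3.87 and 4.03 with IL1, against 0.00, −1.39 and −0.21 with vehicle. The change was 1.40 ± 0.47 with TNF present and 4.87 ± 0.47 without it (interaction unadjusted p = 0.000384, limma). The main effect was 3.14 ± 0.61 (adjusted p = 0.256), and 2.98 ± 0.55 on the second probe. When the IL1 change was averaged over both TNF states from a fit of the 4 group means, SOD2 and HSD11B1 were called, at adjusted p values of 0.0301 and 0.0302.

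Other genes gave larger values in the absence of TNF. CTSS, the protease that prepares MHC class II molecules, gave 0.07 ± 0.30 with TNF present and 2.19 ± 0.30 without it, and COXFA4L3, a mitochondrial protein gene, 2.15 ± 0.70 and 4.53 ± 0.70. DCLK3, a kinase gene, and IL6 ran the other way, with DCLK3 at 2.63 ± 0.28 with TNF present and 1.10 ± 0.28 without it. A second, dim DCLK3 probe gave a main effect of −0.49 ± 0.28, with −0.19 in the presence of TNF and −0.74 in its absence. The unadjusted interaction p was 0.000481 for CTSS, 0.0360 for COXFA4L3, 0.00328 for DCLK3 and 0.0484 for IL6, and the adjusted p was 0.843 for CTSS and 1 for the others (limma).

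**Figure D4:**
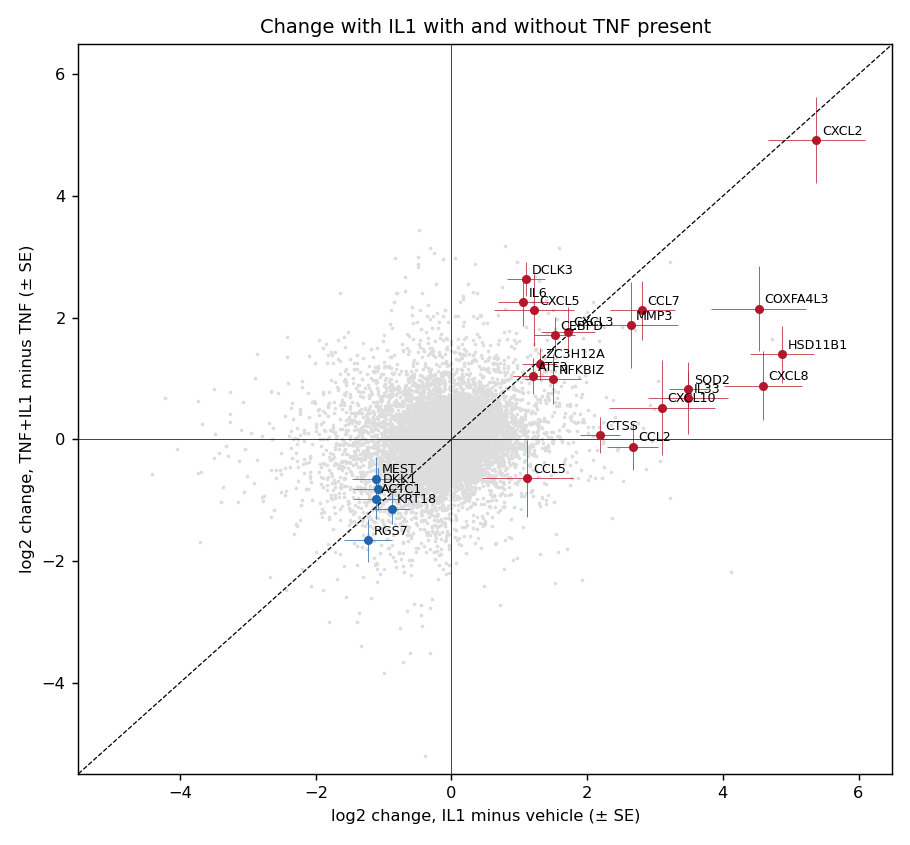
The log2 change with IL1 in the presence of TNF (vertical axis, TNF+IL1 minus TNF) is plotted against that in its absence (horizontal axis, IL1 minus vehicle), with all genes in grey and 25 named genes with SE bars in red (higher) or blue (lower). CXCL2 lies near the dashed line of equality at 5.38 and 4.92, whereas CXCL8, HSD11B1, SOD2 and IL33 lie to its right.

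Set against the main effect of TNF in the same model, no probe was called for IL1 minus TNF, and 2754 had an unadjusted p under 0.05 (limma). TNF itself gave 31 called probes, 26 higher and 5 lower (0.0578%), but the calls of 2 comparisons do not test their difference. CXCL2 differed by 3.78 ± 0.68 in favour of IL1 (unadjusted p = 0.000171, adjusted p = 0.833). BST2, an interferon-induced membrane protein, differed by −1.91 ± 0.37 (limma, unadjusted p = 0.00033, adjusted p = 0.855). TNF raised BST2 by 3.00 ± 0.26 (adjusted p = 0.00491) and IL1 gave 1.10 ± 0.26 (adjusted p = 0.304). IL10 was 1.71 ± 0.46 higher with IL1 than with TNF in this contrast (unadjusted p = 0.00348, adjusted p = 0.897). Of 39 measured interferon response genes, 5 were higher and 1 lower with IL1 at an unadjusted p under 0.05. Over all genes, 2.61% were higher and 9.15% lower at that level. The median of the interferon list was 0.14, and none of its genes was called.

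No gene fell past the test with IL1 in the reported fit. The lower genes with clear signal and the lowest p included KRT18, a keratin of simple epithelia that stromal lines can express at a low level. Its levels were 1.63, 2.13 and 2.01 with TNF+IL1, against 2.96, 3.51 and 2.72 with TNF, and 2.67, 2.67 and 2.53 with IL1, against 3.28, 3.88 and 3.35 with vehicle. All arrays with IL1 lay below all arrays without it, the closest being 2.67 and 2.72. The change was −1.01 ± 0.18 (limma, adjusted p = 0.175) and −0.84 ± 0.18 on a second probe (adjusted p = 0.278). KRT19, a brighter keratin of the same kind, gave −1.06 ± 0.32 (adjusted p = 0.309).

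The epithelial marker list as a whole had 12 measured members, of which 11 were below 0 (12054 of all 18106 genes were), 7 were lower at an unadjusted p under 0.05 (9.15% of all genes were) and 2 were separated. Its median was −0.44, and −0.34 after quantile normalization. Its mean level per array ran from 0.24 to 0.82 with IL1 and from 0.57 to 1.19 without it, with the highest value on vehicle replicate 3. Of the 12 members, 4 had a mean level above the median gene, namely KRT19 (5.5), the splicing factor ESRP1 (4.15), KRT18 (2.78) and MUC1 (2.03). The other 8 lay below it, among them the adhesion molecule EPCAM at −1.36, the tight junction gene CLDN3 at −3.22 and the keratin KRT5 at −2.85. The part of any epithelial-like cells in these values was not tested.

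ACTC1, cardiac actin, had levels of 3.58, 3.90 and 3.55 with TNF+IL1, against 4.28, 4.90 and 4.79 with TNF, and of 5.52, 5.99 and 4.70 with IL1, against 6.26, 6.38 and 6.92 with vehicle. It was separated in each background, the arrays with TNF lay lower within each IL1 state, and the change with IL1 was −1.05 ± 0.22 (limma, adjusted p = 0.278). Of 15 measured contractile and smooth muscle genes 1 was above 0 (6052 of all 18106 genes were). At an unadjusted p under 0.05, 2 were lower, a share close to the 9.15% of all genes. The median was −0.29, but −0.05 after quantile normalization, where that over all genes was −0.00.

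DKK1, a secreted WNT inhibitor, ran from 4.19 to 5.73 with IL1 (median 5.5) and from 6.0 to 6.57 without it (median 6.26), and the ranges did not meet. Its change was −0.95 ± 0.25 (limma, adjusted p = 0.304), and −0.67 after quantile normalization. IGFBP3, a carrier of insulin-like growth factors, ran from 2.74 to 3.70 with IL1 and from 3.74 to 4.69 without it, with a change of −0.81 ± 0.23 (adjusted p = 0.304). RGS7, a regulator of G protein signals, gave −1.44 ± 0.24 (adjusted p = 0.160), and a second probe −0.73 ± 0.20 (adjusted p = 0.304). Both RGS7 probes lay below the median gene, at mean levels of 0.95 and 0.41. HSP90AB1, a constitutive chaperone, gave −0.63 ± 0.11 (adjusted p = 0.199), at 4.16 to 4.60 with IL1 and 4.76 to 5.15 without it, and −0.42 after quantile normalization.

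Among the lists with no called member, the cell cycle genes had the lowest median. Of 44 measured, 42 were below 0 (12054 of all 18106 genes were), 5 were lower at an unadjusted p under 0.05, none was separated, and the median was −0.48, and −0.45 after quantile normalization. The 5 make up a share close to the 9.15% of all genes. The mitotic kinesin KIF20A gave −1.35 ± 0.56 (adjusted p = 0.387) and the replication helicase subunit MCM6 −0.68 ± 0.21 (adjusted p = 0.310). By passage the median was −0.78 in passage 13, −1.04 in passage 28 and 0.18 in passage 15, so passage 15 went the other way. That passage holds vehicle replicate 3 and TNF replicate 3, the 2 arrays with the highest scores on the first principal component. Their part in this was not tested for the list by passage, and the list median without those arrays and IL1 replicate 2 was −0.47.

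Passage 15 stood above passages 13 and 28 in several lists. In the order of passages 13, 28 and 15, medians were −0.27, −0.30 and 0.95 for AP-1, CEBP and early growth response factors. They were 0.02, −0.09 and 0.80 for NF-kB subunits and IkB proteins, and −0.14, −0.46 and 0.76 for the metalloproteinase list. The neutrophil chemokines did not split so, at 1.57, 2.16 and 2.14. Structural matrix genes split by passage in the same way as the cell cycle genes. The median over 34 was 0.00, with −0.35 in passage 13, −0.69 in passage 28 and 0.90 in passage 15. Without the 3 arrays highest on the first component it was −0.36, and over all alternatives it ran from −0.49 to 0.25. Only COL16A1, a fibril-associated collagen, reached an unadjusted p under 0.05 (1.47 ± 0.45, adjusted p = 0.310). At that level 2.61% of all genes were higher and 9.15% lower. Of 24 decidualization markers and regulators, 1 was higher and 1 lower at that level, with a median of 0.03. Of 19 adhesion molecules, 1 was higher and 1 lower, with a median of 0.00. The leukocyte ligands ICAM1 and VCAM1 gave −0.32 ± 0.13 (limma, adjusted p = 0.381) and −0.06 ± 0.13 (adjusted p = 0.897). After quantile normalization the ICAM1 change was −0.08.

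**Figure D5:**
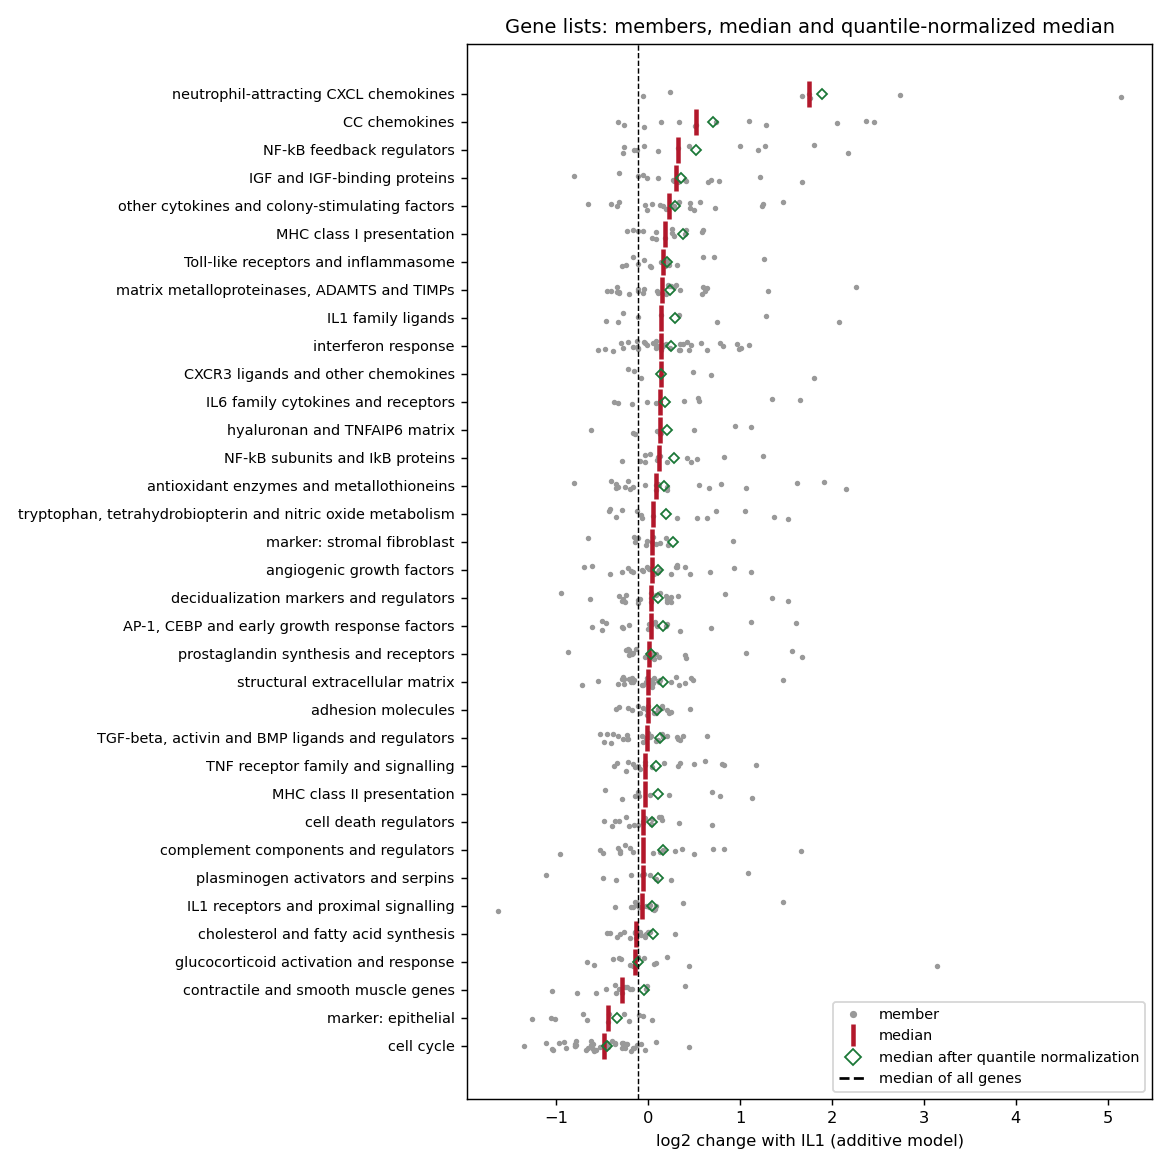
Gene lists are ordered by the median log2 change of their members with IL1 (horizontal axis), with members as grey points, the median as a red bar and the median after quantile normalization as a green diamond. The dashed line is the median of all genes, −0.11; the neutrophil chemokines stand at 1.75 and the cell cycle genes at −0.48.

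The genes kept as checks gave values near 0. The TNF probe gave −0.01 ± 0.11 with IL1, TERT, the catalytic subunit of the telomerase used to immortalise the line, −0.21 ± 0.23, ACTB 0.00 ± 0.22 and GAPDH −0.18 ± 0.11.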

How the data were processed

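RNA of 12 T-HESC cultures was converted to biotinylated cRNA and hybridised to single-colour CodeLink arrays, per the labels. The deposited values were linear intensities; which software the authors used, and how they treated background and scale, is not given in the sources used here. Scaling of each array to its median was inferred from the values, since the median intensity of each array lay close to 1.01. The code −9999 (0.716% of values) and values at or below 0 (1.10%) were set to missing and the rest taken to log2. Array medians of the tested probes differed by at most 0.05 and no further scaling was applied. Positive values numbered 52944 to 53507 per array.

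The tests covered 53671 of 54359 probes, those measured on 2 or more arrays per group. The platform table gave 1 gene for 23472 probes, several for 905 and none for 29982. Each of 18106 genes stands for its brightest probe by mean level, among probes of that gene alone. An additive model of TNF and IL1 was fitted with limma 3.58.1 in R 4.3.3, with 9 residual degrees of freedom, two-sided moderated tests and Benjamini-Hochberg adjustment over all probes. A probe was called at an adjusted p under 0.05. The interaction, and the change with IL1 in each TNF state, came from a fit of 4 group means. The model was tested on simulated data with known changes and independent errors. Those data held no differences between whole arrays or passages, so that run checked the code only. Errors of changes are SEs. Promoters came from RefSeq (GRCh38.p14).

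The lists, members and tests were chosen with earlier results of these data known. The naming rule took called genes, the member of each list with the lowest p where none was called, the 3 lowest interaction p, and IL1A, IL1R2, IL1RAP, HSD11B1, SOD2, CXCL8, TNF, TERT, ACTB and GAPDH; other genes were named after their values were seen.

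Same-numbered replicates share a passage, per the labels. After removal of group means their residuals correlated by 0.00712 on average (18 pairs, −0.196 to 0.310), against −0.00291 for 36 pairs of different numbers. Removal of group means ties these averages to each other, so the second is no independent reference for the first. The protocols name no block, so the passage block was an alternative, beside quantile normalization, centring, an offset of 0.1, removal of dim probes, probes with 12 values, 1 probe per gene, a trended robust prior, array weights, no TNF term, and leaving out arrays or passages. Omission of arrays apart on the first component, and its score as a covariate, were added after seeing the data.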

Additional observations from a re-analysis of the deposited data

Results flagged for a closer look

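In 100 named genes the 6 arrays with IL1 and the 6 arrays without it were each searched for a single array far from its nearest neighbour relative to the range of its group. This marked 10 of 200 groups, and chance marks about 1 in 20. Each group of 6 mixed arrays with and without TNF, and all genes shared the same arrays. The count therefore cannot be judged against that share. Of the 10, 3 were vehicle replicate 3. In DKK1, IL1 replicate 3 was lowest among the arrays with IL1 at 4.19, with the next at 5.37. In ATF3, IL1 replicate 2 was lowest among arrays with IL1 at 3.50 (next 3.93), and vehicle replicate 3 was lowest among those without it at 1.88 (next 2.93). In NRG1, a growth factor of the EGF family, IL1 replicate 2 was lowest with IL1 at 1.15 (next 2.45). In TNFAIP6, vehicle replicate 1 was lowest without IL1 at 5.06 (next 5.75). In IL1RAP, vehicle replicate 3 was lowest without IL1 at −4.33 (next −1.73), and in C10orf120 it was highest at 4.23 (next 3.75). In ANXA4, vehicle replicate 2 was highest without IL1 at 6.37 (next 6.18). In RANBP6, TNF+IL1 replicate 2 was lowest with IL1 at −1.91 (next −1.40), and in VWC2, IL1 replicate 3 was lowest with IL1 at −1.93 (next −1.51).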

How the results depend on the processing

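The number of probes called for IL1 was 1 in the reported fit and 1 with median centring, with probes that had 12 values and with the passage as a replicate block, where CXCL2 was again the call (adjusted p = 0.0194); the block changed no other call. It was 13 with quantile normalization, 12 with the offset, 13 without dim probes, 9 with 1 probe per gene, 16 with the trended robust prior, 89 with array quality weights (51 higher, 38 lower), 6 averaged over TNF levels from 4 group means, and 0 without TNF in the model (lowest adjusted p 0.0516). Of the 9 calls with 1 probe per gene, 8 were higher and 1, CD27, was lower (limma, adjusted p = 0.0316). CXCL2 was called in 16 of 30 fits, with log2 changes of 4.44 to 5.71. CEBPD and CCL7 were called with quantile normalization, the offset, no dim probes, 1 probe per gene, the trended robust prior and array weights. Leaving out 1 array gave 0 to 3 called probes, and leaving out a passage 0, which by construction leaves fewer arrays. Without the 3 arrays high on the first component, without 4, and with its score as a covariate the count was 0, with lowest adjusted p values of 0.107, 0.154 and 0.0507. Interaction counts were 0 to 2 over single omissions (1, CXCL8, without TNF replicate 2, and 2 without TNF+IL1 replicate 3), and 1 without the 4 arrays. IL1 minus TNF gave 1 call, CD27, with quantile normalization and 1 with array weights. Separated genes fall in number with each array added, by construction: without 1 array or 1 passage they were 140 to 709 higher and 559 to 3405 lower, without 3 arrays 682 and 2971, without 4 arrays 939 and 4351. Quantile normalization gave 200 lower genes, against 488. The cause of the other moves was not tested. The files carry no detection calls, so how far dim probes stood above background is not known.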

Other observations

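Genes outside the chemokine and NF-kB lists also held values of interest with IL1, none of them past the test (limma). GBP1P1, a pseudogene of the interferon-induced GTPase GBP1, had levels of 3.06, 2.78 and 2.89 with TNF+IL1, against 1.5, 0.70 and 1.00 with TNF, and of 1.26, 0.61 and −0.30 with IL1, against −1.72, −1.36 and −2.11 with vehicle. It was separated in both backgrounds, with 2.05 ± 0.26 (adjusted p = 0.0594) at a mean level of 0.69, below the median gene, but a second probe gave 0.35 ± 0.26. ADORA2A, a receptor for adenosine, gave 1.73 ± 0.29 (adjusted p = 0.160) and was separated in both backgrounds as well. Its mean level of 1.17 also lay below the median gene. TCIM, a regulator of WNT signals, gave 1.57 ± 0.25 (adjusted p = 0.139), and WTAP, a subunit of the RNA methyltransferase complex, 0.75 ± 0.13 (adjusted p = 0.169), with 0.32 ± 0.24 on a second WTAP probe. LINC02541, a noncoding RNA, gave 3.05 ± 0.35 (adjusted p = 0.0594) at a mean level of −4.18, far below the median gene, and it had no value on vehicle replicate 2.

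Lists not described above, cell type markers aside, had medians between −0.14 and 0.30. The complement list had 18 measured members and a median of −0.06, and its component factor B (CFB) gave 1.66 ± 0.52 (adjusted p = 0.310). Of 16 IGF genes and binding proteins, 3 were higher and 2 lower at an unadjusted p under 0.05, with a median of 0.30. The shares of all genes at that level were 2.61% higher and 9.15% lower, so the 2 lower ones lay close to the share of all genes. Of 24 angiogenic growth factors, 4 were higher and none lower at that level, led by NRG1 with 1.12 ± 0.32 (adjusted p = 0.304), against 0.27 ± 0.16 and −0.05 ± 0.24 on the other probes of NRG1. Of 15 MHC class I presentation genes none reached that level in either direction, and the median was 0.18. IER3, an early response gene that limits cell death and is bright in these cells, gave 0.69 ± 0.22 (adjusted p = 0.310), while the 19 cell death regulators had a median of −0.06.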
